A study of Mus musculus with 14 samples.

Results

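Nuclear receptor genes encode transcription factors, many of which are switched on by small fat-soluble ligands. Here 40 of them, from thyroid hormone and retinoic acid receptors to the orphan NR4A receptors, were followed in mouse small intestinal organoids. Members were a list of gene symbols, all 40 of which matched the RefSeq gene table. Regions of the H3K27ac count table and sites of the ONECUT2 table were given to the nearest protein-coding gene span within 100 kb. By this rule 39 of the 40 genes had at least 1 of the 55050 H3K27ac regions (205 regions in all, among 16032 genes with a region), and 20 had at least 1 of the 7268 ONECUT2 sites (43 sites). Rxrb, which encodes 1 of the partner receptors described later, had neither.

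H3K27ac is the acetylation of histone H3 at lysine 27, a mark of active promoters and enhancers, and ONECUT2 is a homeodomain transcription factor. Both were profiled by ChIPmentation, chromatin immunoprecipitation in which a transposase adds the sequencing adapters. The RANKL arm was kept for 3 days with 3 µM CHIR99021, which activates Wnt signalling, and 1.5 mM valproic acid, a histone deacetylase inhibitor. It then had a day in plain medium before RANKL at 100 ng/mL, the cytokine that drives formation of antigen-sampling M cells, with harvest on day 6. Control organoids stayed in ENR medium, named for its factors EGF, Noggin and R-spondin 1, so each difference is that of the whole protocol. Each arm had 3 H3K27ac and 3 ONECUT2 libraries from separate differentiation experiments, and both arms came from the organoid line of 1 female mouse of genotype Lgr5GFPDTR/+. A p-value here therefore measures the spread between experiments in 1 line.

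Most nuclear receptors bind DNA beside genes they control, either alone or with an RXR partner, and ligand binding swaps corepressor complexes, which remove histone acetylation, for coactivators that add it. In the intestine, members of the family sense fatty acids (PPARs), bile acids (FXR), oxysterols (LXRs), vitamin D (VDR), retinoic acid (RARs) and foreign compounds (PXR and CAR). REV-ERBs and RORs act in the circadian clock, and NR4A genes are switched on quickly by many signals. The values below are of chromatin at these genes and are not levels of their transcripts or proteins.

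Reads in H3K27ac regions numbered 5434172 to 9160267 per control library and 2745451 to 3902301 per RANKL library. Of 10 M cell markers tested, 9 were higher and 0 lower, with summed signal of 407 to 428 CPM (reads per gene scaled to a common library size, with TMM factors) in control libraries and 996 to 1091 CPM in RANKL libraries. Of 11 epithelial markers, 4 were higher and 7 lower, and all 11 had regions. Markers of other cell types were also tested: 5 of 10 mesenchymal markers were higher and 0 lower (281 to 294 CPM against 364 to 380.1 CPM), and 5 of 8 endothelial markers were higher and 3 lower. For leukocytes, 4 of 6 were higher and 1 lower, and Cd3e, Cd68 and Lyz2 were among those with no tested region. For neurons and glia 1 of 3 was higher, and Sox10, Elavl4 and S100b were among those with no tested region. The part of such markers in the results below was not tested, and in bulk organoids fewer cells of a type and less signal per cell cannot be told apart.

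Summed over the regions of each gene, 10 of the 39 members were higher after the RANKL protocol and 10 were lower (3 against 3 libraries, 15965 genes tested by the quasi-likelihood method of edgeR, with p adjusted after Benjamini and Hochberg and held to 0.05). Over all genes tested, 24.9% were called higher and 26.8% lower, so the members' shares (25.6% in each direction) lay near the background. The median log2 fold of the members was 0.01, as it was over all genes. In 9 members all RANKL libraries lay above all control libraries and in 12 all lay below (27.6% and 29.6% of all genes). Higher members were Rarb, all 4 REV-ERB and ROR genes (Nr1d1, Nr1d2, Rora and Rorb), Nr2f6, Esr1, Esrrb, Nr5a1 and Nr5a2. Lower members were Thra, Thrb, Rara, Nr1h2, Nr1h4, Esr2, Nr0b2 and all 3 NR4A genes. Against a minimum fold of 1.5, only Rarb and Esrrb were still called higher (2 of 39) and only Rara lower (1 of 39), near the 5.39% and 2.48% of all genes called so. Of the 10 members with the lowest control signal per region, 9 had a log2 fold above 0, with 6 called higher and 0 lower. They were picked by control signal, on which the fold itself depends. No share was taken for equally weak genes, so nothing about these members is drawn from that count. All 20 calls were also made with the trend of fold with signal strength removed, and with library-size scaling. Each of these settings added lower calls at Ppard and Nr3c2, giving 10 higher and 12 lower. Of all genes 22.8% were higher and 29.4% lower with library-size scaling, and 23.8% and 24.8% with the trend removed.

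**Figure D1:**
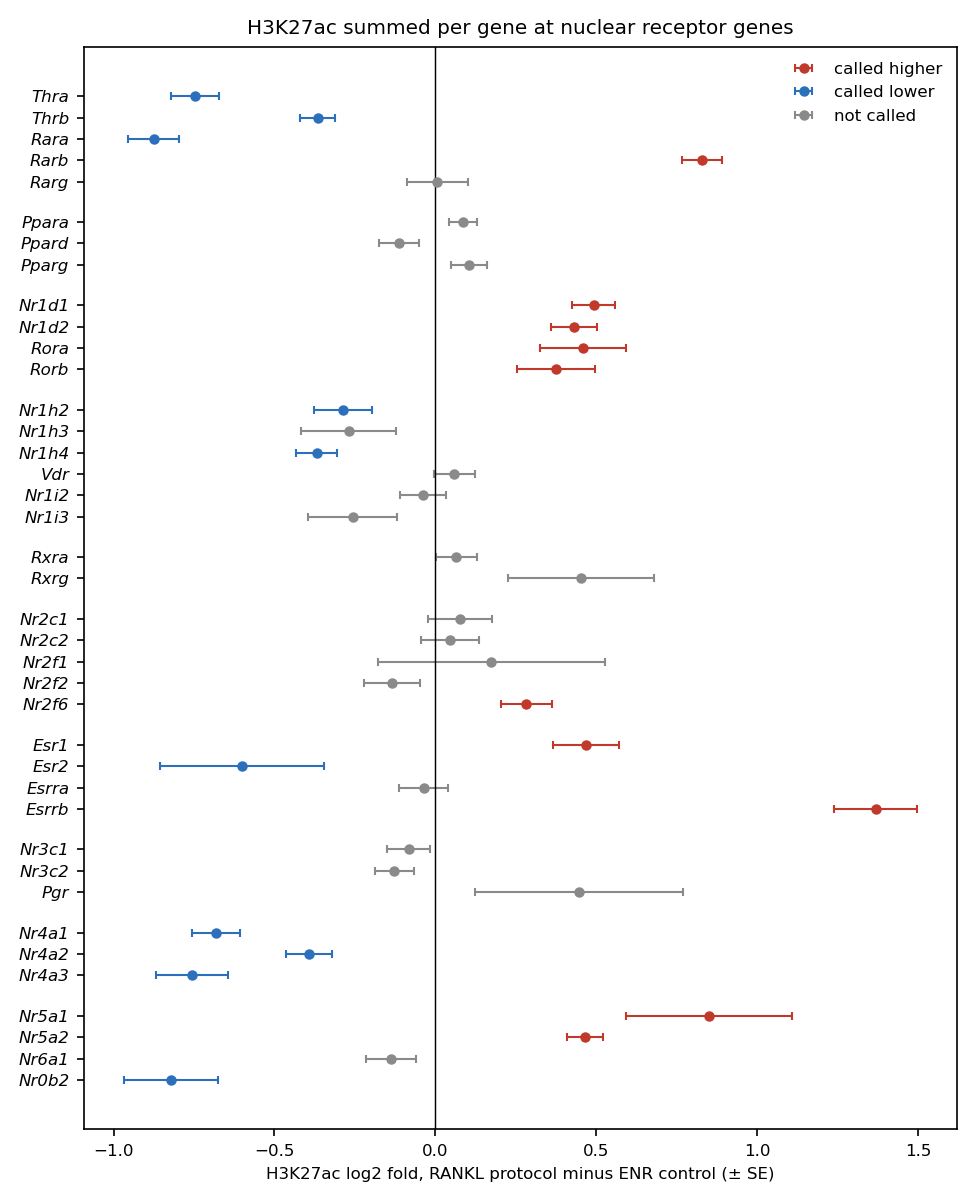
H3K27ac log2 fold of the RANKL protocol minus ENR control for each of the 39 members with a region, with its standard error (edgeR, 3 against 3 libraries), grouped by family. Red points were called higher and blue points lower, and all 4 REV-ERB and ROR genes lie right of 0 and all 3 NR4A genes left of it.

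Among the receptors for thyroid hormone and retinoic acid, H3K27ac fell at 3 of 5 genes and rose at 1. Rarb, the retinoic acid receptor beta gene and itself a classical target of retinoic acid, had 130.2, 153 and 149 CPM in the control libraries and 233, 255 and 279.9 CPM in the RANKL libraries. Its RANKL libraries all lay above its control libraries (log2 fold 0.83 ± 0.06 SE, adjusted p = 1.68e-19), a rise of 1.78-fold. Rara, the receptor alpha gene, had 144, 136 and 155 CPM in the control libraries and 79.9, 76.2 and 80.04 CPM in the RANKL libraries. All 3 RANKL libraries lay below the controls at Rara (log2 fold -0.87 ± 0.08 SE, adjusted p = 5.67e-16), a fall of 1.83-fold. Rarg, the gamma gene, had 65.7, 75.6 and 65.6 CPM in the control libraries and 74.1, 73.9 and 62.8 CPM in the RANKL libraries, with overlapping groups and no call (log2 fold 0.01 ± 0.09 SE, adjusted p = 0.961). So the 3 retinoic acid receptor genes went different ways: 1 up, 1 down and 1 not called.

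The rise at Rarb came from a few of its 23 regions, 6 of which were called higher and 2 lower. All 8 stood inside the gene, which spans 651493 bp. The start RefSeq lists for Rarb lies well inside that span. The called regions at 16647750, 16741449, 16755427, 16841098 and 16949505 lie upstream of it, at distances of -73.3 to -375 kb. The largest gain was at chr14:16544159-16546159, with 2.32, 5.28 and 2.81 CPM in the control libraries and 30.3, 44.98 and 48.5 CPM in the RANKL libraries. Groups were far apart there (log2 fold 3.46 ± 0.19 SE, adjusted p = 6.71e-58), and the region rose by 2.79 on the log2 scale (adjusted p = 8.93e-35) more than the gene as a whole. It held 2.41% of the gene's reads in control libraries and 17.9% in RANKL libraries. Further called gains lay at chr14:16755427-16757427 (log2 fold 1.60 ± 0.17 SE, adjusted p = 4.86e-19), chr14:16741449-16743449 (log2 fold 1.66 ± 0.26 SE, adjusted p = 1.92e-09) and chr14:16647750-16649750 (log2 fold 1.25 ± 0.25 SE, adjusted p = 5.94e-06). The last pair of gains was weaker, at 16557238 and 16841098, and with the signal trend removed neither was called (adjusted p = 0.0807 and 0.191). In the opposite direction, chr14:16431211-16433211 had 20.7, 17.4 and 20.3 CPM in the control libraries and 13.6, 6.04 and 10.6 CPM in the RANKL libraries. That region fell (log2 fold -0.95 ± 0.20 SE, adjusted p = 1.79e-05), and so did chr14:16949505-16951505 (log2 fold -0.999 ± 0.29 SE, adjusted p = 0.00306), and both differed from the gene as a whole (difference -1.63 on the log2 scale, adjusted p = 5.95e-13 and difference -1.68 on the log2 scale, adjusted p = 8.38e-07).

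Rara had only 2 regions, each at a start listed by RefSeq, and both were called lower to unequal degrees. The upstream start (chr11:98936581-98938581) had 59.5, 59.5 and 64.9 CPM in the control libraries and 53.9, 49.2 and 49.2 CPM in the RANKL libraries (log2 fold -0.27 ± 0.11 SE, adjusted p = 0.0466). The downstream start (chr11:98962932-98964932) had 85.03, 73.9 and 91.1 CPM in the control libraries and 18.9, 19.9 and 21.2 CPM in the RANKL libraries. All RANKL libraries lay far below the controls at the downstream start (log2 fold -2.04 ± 0.13 SE, adjusted p = 2.08e-45), and it differed from the gene as a whole by -1.01 on the log2 scale (adjusted p = 5.88e-12). At the upstream start the call was lost with library-size scaling (log2 fold -0.18), by DESeq2, with the signal trend removed (log2 fold -0.01), with the replicate block (adjusted p = 0.0689) and in 4 of the 6 fits that left out a library. The 250 bases before the downstream start (chr11:98964622-98964871, plus strand, RefSeq, GRCm38.p6, the assembly also called mm10) lie inside that region and are shown because no other member start lost so much signal. The ONECUT core ATTGAT and the nuclear receptor half-site AGGTCA were searched on both strands, and neither is in these letters.
Rara downstream start: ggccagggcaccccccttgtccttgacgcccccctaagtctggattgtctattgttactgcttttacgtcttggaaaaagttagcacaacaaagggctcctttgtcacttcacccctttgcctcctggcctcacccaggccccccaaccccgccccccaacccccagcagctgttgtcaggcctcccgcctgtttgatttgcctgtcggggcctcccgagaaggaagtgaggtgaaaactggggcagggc

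At the thyroid hormone receptor genes signal fell over 2 of 3 regions of Thra and 8 of 17 of Thrb, with 1 region rising in each. Thra, receptor alpha, had 151, 154 and 171 CPM in the control libraries and 85.8, 100.2 and 95.9 CPM in the RANKL libraries. Its groups did not overlap (log2 fold -0.75 ± 0.08 SE, adjusted p = 6.42e-14). The region with the smallest adjusted p, chr11:98749841-98751841, had 74.98, 71.3 and 85.1 CPM in the control libraries and 24.6, 33.5 and 28.5 CPM in the RANKL libraries (log2 fold -1.40 ± 0.12 SE, adjusted p = 4.13e-26). Toward the far end of the gene, chr11:98762323-98764323 went the other way. It had 14.9, 14.6 and 13.5 CPM in the control libraries and 24.6, 19.02 and 25.3 CPM in the RANKL libraries (log2 fold 0.68 ± 0.17 SE, adjusted p = 0.000424), a difference of 1.59 on the log2 scale (adjusted p = 7.25e-16) from the gene as a whole. That region lies near Nr1d1, a gene that overlaps the end of Thra and is described below. Thrb, receptor beta, had 279, 268 and 265 CPM in the control libraries and 214, 201 and 214 CPM in the RANKL libraries. Here too the groups were apart (log2 fold -0.37 ± 0.05 SE, adjusted p = 3.35e-08). The start region of Thrb (chr14:17659868-17661868) had 61.5, 59.4 and 60.9 CPM in the control libraries and 34.99, 35.6 and 27.5 CPM in the RANKL libraries (log2 fold -0.90 ± 0.12 SE, adjusted p = 6.61e-12). The 1 gain, inside the gene (chr14:17776414-17778414), had 6.38, 6.60 and 5.63 CPM in the control libraries and 15.7, 8.45 and 9.89 CPM in the RANKL libraries (log2 fold 0.84 ± 0.27 SE, adjusted p = 0.00662). Without RANKL replicate 1 that gain was not called (log2 fold 0.56, adjusted p = 0.154). The start window of Thrb (chr14:17660710-17660959, plus strand, RefSeq, GRCm38.p6) is shown because it lies inside the falling region and holds a half-site, in capitals.
Thrb start: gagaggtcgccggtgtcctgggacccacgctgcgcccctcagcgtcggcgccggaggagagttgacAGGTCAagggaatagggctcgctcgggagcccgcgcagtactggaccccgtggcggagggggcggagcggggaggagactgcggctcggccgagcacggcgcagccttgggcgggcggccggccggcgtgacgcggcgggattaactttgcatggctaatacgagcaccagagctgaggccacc

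Rarg also had a region that did not move with the rest. It lay inside the gene (chr15:102234689-102236689) with 17.97, 21.8 and 20.3 CPM in the control libraries and 11.1, 11.8 and 11.3 CPM in the RANKL libraries. Signal fell there (log2 fold -0.82 ± 0.19 SE, adjusted p = 0.000105) and differed from the gene as a whole by -0.70 on the log2 scale (adjusted p = 0.0023), while neither of the 2 start regions was called.

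The 3 PPAR genes encode receptors for fatty acids and their derivatives and were not called as sums. Each nonetheless lost signal at its start and gained it at a region inside the gene. A loss at the start was common: over all genes 51.7% of start regions were lower, and 24.3% of those tested fell relative to their gene. Of all regions inside genes 18.1% were higher. Ppara had 464, 432 and 473 CPM in the control libraries and 494, 495 and 463 CPM in the RANKL libraries (log2 fold 0.09 ± 0.04 SE, adjusted p = 0.0939). Ppard had 185, 181 and 176 CPM in the control libraries and 168, 158 and 174 CPM in the RANKL libraries (log2 fold -0.11 ± 0.06 SE, adjusted p = 0.117). Pparg had 211, 209 and 228 CPM in the control libraries and 232, 236 and 227 CPM in the RANKL libraries (log2 fold 0.10 ± 0.06 SE, adjusted p = 0.113). Groups overlapped at Ppara and Pparg, and at Ppard the RANKL libraries all lay lower. Ppard was called lower with library-size scaling (log2 fold -0.15, adjusted p = 0.0361) and so it was once the signal trend was taken out (log2 fold -0.18, adjusted p = 0.011). Ppara was called higher without RANKL replicate 3 (adjusted p = 0.0475), Pparg within 10 kb (log2 fold 0.21, adjusted p = 0.0101), and both with overlapped regions counted for every gene (adjusted p = 0.0281 and 0.0472). At the start of Ppara (chr15:85734396-85736396) the libraries had 41.7, 48.4 and 52.9 CPM in the control libraries and 28.9, 29.3 and 23.1 CPM in the RANKL libraries (log2 fold -0.83 ± 0.13 SE, adjusted p = 2.4e-09). That of Ppard (chr17:28231591-28233591) had 49.9, 43.8 and 43.3 CPM in the control libraries and 25.3, 26.3 and 26.04 CPM in the RANKL libraries (log2 fold -0.81 ± 0.13 SE, adjusted p = 7.83e-09). For Pparg (chr6:115361206-115363206) the values were 42.7, 41.6 and 43.7 CPM in the control libraries and 33.6, 33.2 and 30.4 CPM in the RANKL libraries (log2 fold -0.40 ± 0.13 SE, adjusted p = 0.0056). At all 3 starts the RANKL libraries lay below the controls, and each start fell relative to its own gene (difference -0.77 on the log2 scale, adjusted p = 6.64e-08 for Ppara, difference -0.54 on the log2 scale, adjusted p = 0.000258 for Ppard and difference -0.35 on the log2 scale, adjusted p = 0.0223 for Pparg). With the signal trend removed the start of Pparg was not called (log2 fold -0.11), and its difference from the gene was lost without control replicate 1 or 2 or RANKL replicate 2 or 3 (adjusted p from 0.0509 to 0.0783).

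The regions inside the PPAR genes that rose were weaker ones. In Ppara (chr15:85745350-85747350) the signal was 19.5, 14.6 and 16.5 CPM in the control libraries and 22.1, 23.5 and 22.7 CPM in the RANKL libraries (log2 fold 0.45 ± 0.17 SE, adjusted p = 0.0215). In Ppard (chr17:28296754-28298754) it was 6.57, 7.81 and 4.50 CPM in the control libraries and 9.996, 10.3 and 12.3 CPM in the RANKL libraries (log2 fold 0.76 ± 0.26 SE, adjusted p = 0.0134). Pparg (chr6:115379334-115381334) had 5.99, 4.62 and 3.94 CPM in the control libraries and 10.7, 7.55 and 7.72 CPM in the RANKL libraries (log2 fold 0.82 ± 0.31 SE, adjusted p = 0.0253). Each rose relative to its gene (difference 0.52 on the log2 scale, adjusted p = 0.0108, difference 1.03 on the log2 scale, adjusted p = 0.000909 and difference 0.87 on the log2 scale, adjusted p = 0.0249). None of these 3 calls held in every alternative: the Ppara region was lost without control replicate 2, control replicate 3 or RANKL replicate 2, the Ppard region without control or RANKL replicate 3, and the Pparg region without control replicate 2 or 3 or RANKL replicate 1, where adjusted p ran from 0.0537 to 0.160. DESeq2 did not call those of Ppara and Pparg either (adjusted p = 0.0885 and 0.0539), nor did removal of the signal trend leave that of Pparg called (adjusted p = 0.108).

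**Figure D2:**
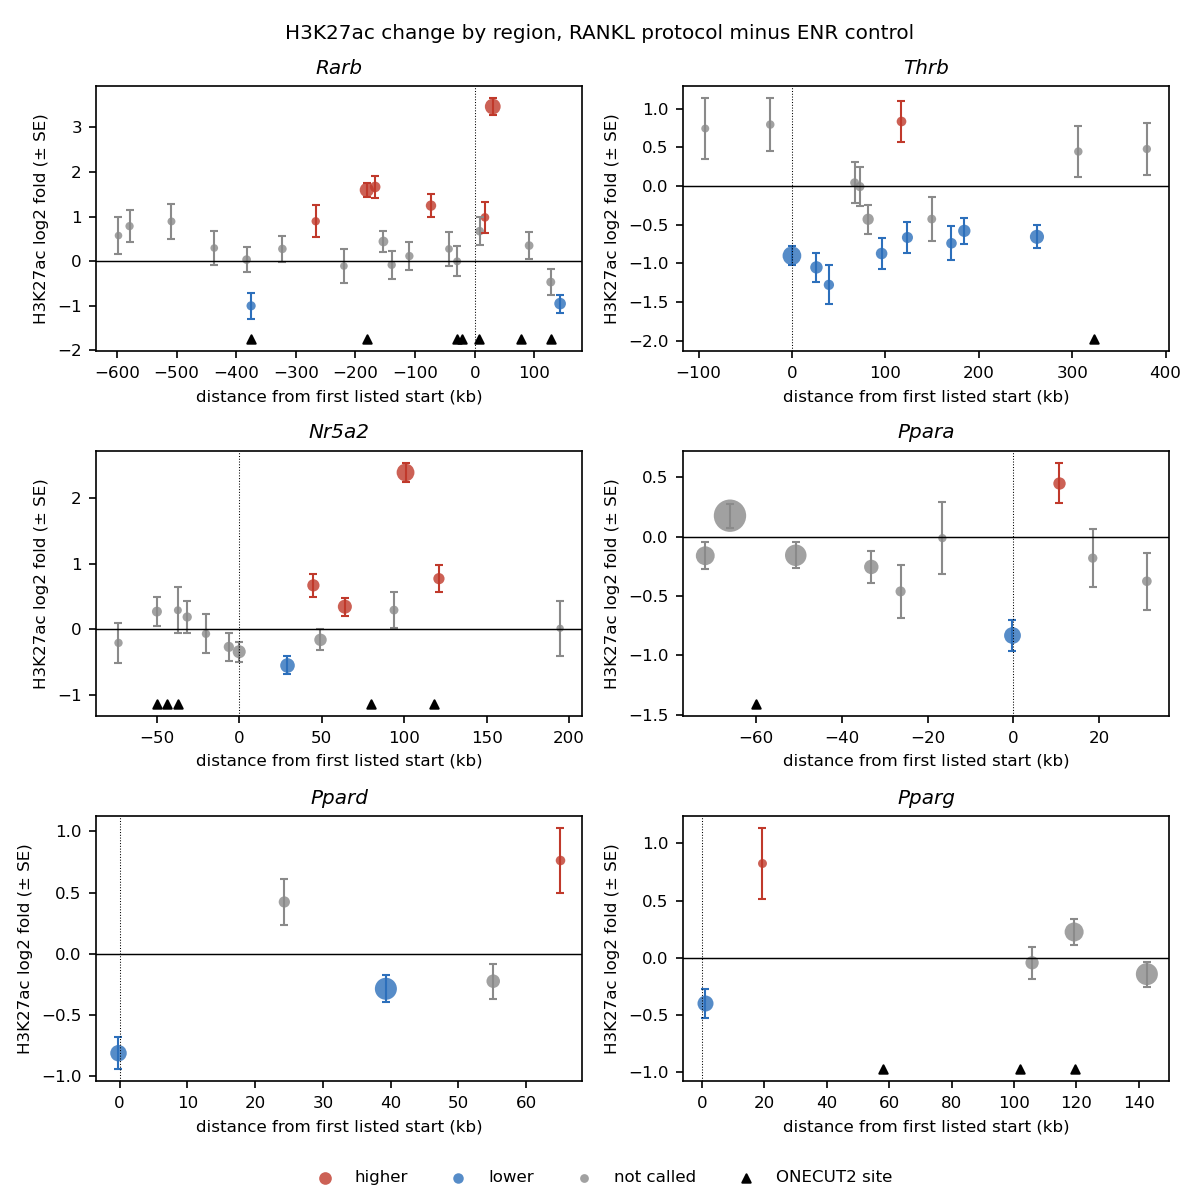
H3K27ac log2 fold (RANKL protocol minus ENR control, with standard error) of each region of 6 genes against its distance in kb from the first start RefSeq lists, along the gene. Point area grows with the signal of the stronger group, and triangles mark ONECUT2 sites of the authors' table. For Rarb the listed start lies well inside the gene span. The starts of Thrb and the 3 PPAR genes are blue (lower), and the highest points of Rarb and Nr5a2 lie away from the start, at log2 folds of 3.46 and 2.39.

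All 4 genes of the REV-ERB and ROR group, whose products repress or activate through shared response elements in the circadian clock, were higher. Log2 folds were 0.49 ± 0.07 (SE) at Nr1d1, 0.43 ± 0.07 at Nr1d2, 0.46 ± 0.13 at Rora and 0.37 ± 0.12 at Rorb (adjusted p from 2.67e-09 to 0.00705). Groups did not overlap at Nr1d1, Nr1d2 and Rora, and they overlapped at Rorb, whose call ended without control replicate 1. Nr1d1 had the highest signal per region of all members, 138 ± 10.4 CPM in control and 193 ± 16.3 CPM in RANKL libraries (SD, n = 3). Its 1 region lies at its start and was 1 of only 2 member start regions called higher (log2 fold 0.34 ± 0.10 on the region scale, adjusted p = 0.0041). Without RANKL replicate 2 that region call was lost (log2 fold 0.29, adjusted p = 0.0627). Rora and Rorb had 8 and 7 regions, none of them called singly, and per region only 3.61 and 5.38 CPM in control libraries. Among 15 circadian clock genes, 4 were higher and 4 lower (median log2 fold 0.02). Higher were Npas2 (0.63 ± 0.05) and Bhlhe40 (0.48 ± 0.05) among others, and lower were Arntl, the clock activator that REV-ERBs repress (-0.51 ± 0.05), and Nfil3 (-0.85 ± 0.10).

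Of the receptors for oxysterols, bile acids, vitamin D and foreign compounds, 2 of 6 were lower and 0 higher. Nr1h4, the bile acid receptor FXR, fell from 188 ± 4.49 to 146 ± 0.96 CPM (SD, n = 3; log2 fold -0.37 ± 0.06 SE, adjusted p = 9.28e-07). Of its 7 regions 5 were lower and none differed from the gene as a whole, and 3 were lower with library-size scaling, with the signal trend removed or by DESeq2. Its start region (chr10:89504207-89506207) had 42.7, 38.5 and 41.6 CPM in the control libraries and 25.7, 24.5 and 25.8 CPM in the RANKL libraries (log2 fold -0.69 ± 0.13 SE, adjusted p = 2.36e-06). Nr1h2, the oxysterol receptor LXR beta, fell by 0.29 on the log2 scale (adjusted p = 0.00612). Nr1h3 (LXR alpha), Vdr, Nr1i2 (PXR) and Nr1i3 (CAR) were not called, with log2 folds from -0.27 to 0.06. Vdr, the vitamin D receptor gene, had 167, 163 and 176 CPM in the control libraries and 169, 175 and 182 CPM in the RANKL libraries (log2 fold 0.06 ± 0.06 SE, adjusted p = 0.443), with overlapping groups. A region outside Vdr, chr15:97848687-97850687, fell. It had 14.3, 14.6 and 18.8 CPM in the control libraries and 8.21, 6.94 and 11.6 CPM in the RANKL libraries (log2 fold -0.80 ± 0.22 SE, adjusted p = 0.00115) and differed from the gene as a whole by -0.70 on the log2 scale (adjusted p = 0.0102), a difference lost without control replicate 3 (adjusted p = 0.0678) or RANKL replicate 2 (adjusted p = 0.0975). Nr1i3 and Nr1h3 each had 1 region, at the start. Gene sums and single regions were scaled separately, so their values are not on 1 scale. On the region scale both were called lower (log2 folds -0.41 and -0.42), which gene sums did not show, and both calls were lost with library-size scaling, with the signal trend removed, by DESeq2, and without control replicate 2 or RANKL replicate 1.

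RXRs pair with many of the receptors above. Rxra, with 9 regions, had a log2 fold of 0.07 ± 0.06 (SE) and Rxrg, with 3 weak regions, 0.45 ± 0.23, and neither was called (adjusted p = 0.394 and 0.0874). Of 5 orphan receptor genes of subfamily 2 only 1 was called. Nr2f6, which represses transcription in T cells among other places, was higher. It had 92.4, 96.9 and 101 CPM in the control libraries and 125, 125 and 105 CPM in the RANKL libraries, without overlap (log2 fold 0.28 ± 0.08 SE, adjusted p = 0.00198). Its start region rose (log2 fold 0.27 ± 0.11 SE, adjusted p = 0.0388) and its other region fell (log2 fold -0.41 ± 0.16 SE, adjusted p = 0.0411), but both calls were lost with the replicate block (adjusted p = 0.0705 and 0.0552) and in at least 3 of the 6 fits that left out a library. Nr2c1 and Nr2c2, the testicular receptor genes, and Nr2f1 and Nr2f2, the COUP transcription factor genes, were not called (log2 folds from -0.13 to 0.17).

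The estrogen and estrogen-related receptor genes went in both directions. Esrrb, known for its part in the pluripotency network, had 19.97, 23.2 and 19.8 CPM in the control libraries and 56.4, 47.6 and 60.03 CPM in the RANKL libraries. RANKL libraries lay above controls at Esrrb (log2 fold 1.37 ± 0.13 SE, adjusted p = 3.95e-15), a rise of 2.58-fold, which was the largest of all members. A region inside the gene (chr12:86434993-86436993) carried most of it, with 8.12, 8.47 and 7.13 CPM in the control libraries and 29.99, 25.7 and 31.8 CPM in the RANKL libraries (log2 fold 1.87 ± 0.18 SE, adjusted p = 2.31e-21). It rose by 0.64 on the log2 scale (adjusted p = 0.00364) more than the gene as a whole. The start region of Esrrb was weak, at 2.75 CPM in control and 4.45 CPM in RANKL libraries, and was not called. Esr1, estrogen receptor alpha, was higher (0.47 ± 0.10, adjusted p = 8.48e-05). Esr2, receptor beta, had 9.98, 13.00 and 14.2 CPM in the control libraries and 10.2, 6.99 and 7.67 CPM in the RANKL libraries. Its only region lies at its start. The groups of Esr2 overlapped and its call was marginal (log2 fold -0.60 ± 0.25 SE, adjusted p = 0.0413): it was lost by DESeq2 (adjusted p = 0.0928), without control replicate 2 or 3, and without RANKL replicate 2 or 3 (0.0980 to 0.140). With the experiment as a block, Esr2 was not called either (adjusted p = 0.0515), while on the region scale its groups did not overlap (log2 fold -0.75 ± 0.24 SE, adjusted p = 0.00814), a call lost without control replicate 3. Esrra, whose product works with Ppargc1a on mitochondrial genes, had the second highest signal per region, 118 CPM in control libraries, and was not called (log2 fold -0.04 ± 0.08).

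None of the 3 steroid receptor genes was called as a sum. Nr3c1, the glucocorticoid receptor, had 152, 153 and 155 CPM in the control libraries and 154, 138 and 144 CPM in the RANKL libraries (log2 fold -0.08 ± 0.07 SE, adjusted p = 0.299). No start is listed for Nr3c1, so a region at its start could be classed as inside the gene. Of its 8 regions, the one with the smallest adjusted p lay inside the gene and fell, with 61.5, 60.4 and 72.6 CPM in the control libraries and 47.8, 43.5 and 41.7 CPM in the RANKL libraries (log2 fold -0.55 ± 0.12 SE, adjusted p = 1.88e-05). Another region inside the gene rose, with 6.18, 10.7 and 6.75 CPM in the control libraries and 16.1, 11.8 and 10.9 CPM in the RANKL libraries (log2 fold 0.64 ± 0.24 SE, adjusted p = 0.0221). Both differed from the gene as a whole (difference -0.32 on the log2 scale, adjusted p = 0.0251 and difference 0.87 on the log2 scale, adjusted p = 0.00222). The difference of the falling region was lost without control replicate 3 or RANKL replicate 1 or 3 (adjusted p from 0.0572 to 0.184). The rise was not called by DESeq2 (adjusted p = 0.0697), nor without control replicate 1, control replicate 3 or RANKL replicate 1 (adjusted p from 0.0976 to 0.171). Nr3c2, the mineralocorticoid receptor, had 209, 202 and 205 CPM in the control libraries and 167, 205 and 189.7 CPM in the RANKL libraries (log2 fold -0.13 ± 0.06 SE, adjusted p = 0.0724), with overlapping groups. It was called lower with library-size scaling (log2 fold -0.16, adjusted p = 0.019), after removal of the signal trend (log2 fold -0.20, adjusted p = 0.00277) and without RANKL replicate 2 (adjusted p = 0.0151). Of its 14 regions 5 were lower and 0 higher (3 lower with library-size scaling, by DESeq2 or without control replicate 1, and 2 without RANKL replicate 3), the most strongly called being chr8:77044054-77046054 (log2 fold -0.70 ± 0.19 SE, adjusted p = 0.00132). Pgr, the progesterone receptor gene, had weak signal in 2 regions, 5.56 ± 1.34 and 7.72 ± 2.39 CPM (SD, n = 3), and was not called.

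H3K27ac fell at all 3 NR4A genes, orphan receptors without a known classical ligand that are induced within minutes to hours by many stimuli. Nr4a1 had 146, 149.5 and 149 CPM in the control libraries and 86.2, 95.5 and 94.8 CPM in the RANKL libraries. Its groups were well apart (log2 fold -0.68 ± 0.07 SE, adjusted p = 1.56e-12). Nr4a3 had 58.9, 59.97 and 59.1 CPM in the control libraries and 35.3, 30.9 and 38.6 CPM in the RANKL libraries and also no overlap (log2 fold -0.76 ± 0.11 SE, adjusted p = 2.35e-08). Nr4a2 averaged 158 ± 8.90 CPM in control and 120.5 ± 9.55 CPM in RANKL libraries (SD, n = 3), likewise without overlap (log2 fold -0.39 ± 0.07 SE, adjusted p = 2.86e-06). The start region of Nr4a1 (chr15:101265762-101267762) had 33.4, 39.7 and 36.6 CPM in the control libraries and 12.1, 12.98 and 9.16 CPM in the RANKL libraries. It fell more than any member start other than the downstream start of Rara (log2 fold -1.71 ± 0.16 SE, adjusted p = 2.73e-22), and more than the gene as a whole (difference -0.87 on the log2 scale, adjusted p = 5.07e-06). Beyond the other end of Nr4a1, a region outside the gene (chr15:101276416-101278416) rose. It had 7.73, 9.02 and 7.69 CPM in the control libraries and 20.7, 17.2 and 15.2 CPM in the RANKL libraries (log2 fold 1.09 ± 0.21 SE, adjusted p = 3.87e-06), a difference of 1.92 on the log2 scale (adjusted p = 2.71e-15) from the gene as a whole. Start regions of Nr4a2 (log2 fold -0.52 ± 0.12 SE, adjusted p = 5.24e-05) and Nr4a3 (log2 fold -0.91 ± 0.12 SE, adjusted p = 5.74e-12) fell as well. Over all genes 26.8% of gene sums and 51.7% of start regions were lower. In the fit rescaled on start regions, where folds are relative to starts of all genes, Nr4a2 was not called (log2 fold -0.16, adjusted p = 0.172). Of 12 other immediate early genes, 6 were lower and 2 higher (median log2 fold -0.18). Egr2 (-1.57 ± 0.12) and Egr1 (-0.79 ± 0.09) were lower, and Ier3 (0.60 ± 0.07) and Junb (0.22 ± 0.07) higher.

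The start windows of Nr4a1 and Nr4a3 are shown because signal fell at both starts, as it did at 51.7% of all start regions. The cyclic AMP response element core TGACGT, through which CREB acts at such genes, was searched on both strands, a motif added after the values were known. Of 32851 RefSeq windows of 250 bases, 6.47% held it, and 2 of 54 member windows (3.70%) did, 1 of them the window of Nr4a3, where it occurs 3 times (capitals). The windows of Nr4a1 and Nr4a2 do not hold it in full. Both hold its shorter part TGACG on the opposite strand (CGTCA), and that part was not counted over all windows. Nr4a1 (chr15:101266596-101266845, plus strand) lies inside its falling region, and the Nr4a3 window (chr4:48045055-48045304, plus strand) lies beyond the end of its region.
Nr4a1 start: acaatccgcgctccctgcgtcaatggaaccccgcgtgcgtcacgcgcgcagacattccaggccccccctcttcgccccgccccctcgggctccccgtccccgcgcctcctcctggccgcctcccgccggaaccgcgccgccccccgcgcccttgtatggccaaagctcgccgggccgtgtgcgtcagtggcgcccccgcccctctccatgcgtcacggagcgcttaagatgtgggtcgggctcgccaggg
Nr4a3 start: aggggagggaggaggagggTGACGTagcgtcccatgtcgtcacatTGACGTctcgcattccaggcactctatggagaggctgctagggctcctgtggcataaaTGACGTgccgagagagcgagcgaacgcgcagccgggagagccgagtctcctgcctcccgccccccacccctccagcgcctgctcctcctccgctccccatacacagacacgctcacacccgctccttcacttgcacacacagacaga

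Both NR5A genes were higher and Nr0b2, whose product represses several nuclear receptors, was lower. Nr5a2 encodes LRH-1, which acts in crypt renewal and local steroid synthesis in the intestine. It had 209, 217 and 187 CPM in the control libraries and 267, 297 and 283 CPM in the RANKL libraries. RANKL libraries all lay above the controls (log2 fold 0.46 ± 0.06 SE, adjusted p = 6.49e-11). The largest part of this was 1 region inside the gene, chr1:136858647-136860647, with 10.05, 11.3 and 9.19 CPM in the control libraries and 53.6, 62.8 and 47.02 CPM in the RANKL libraries. That region rose 5.23-fold (log2 fold 2.39 ± 0.14 SE, adjusted p = 5.49e-50) and by 2.07 on the log2 scale (adjusted p = 2.05e-34) more than the gene as a whole. Toward the start the signal went the other way: chr1:136930278-136932278 had 38.3, 32.1 and 32.8 CPM in the control libraries and 20.7, 25.1 and 23.9 CPM in the RANKL libraries (log2 fold -0.55 ± 0.14 SE, adjusted p = 0.000454), a call lost with the signal trend removed (log2 fold -0.28, adjusted p = 0.113). The start region of Nr5a2 (chr1:136959577-136961577) was not called by itself (log2 fold -0.34 ± 0.15 SE, adjusted p = 0.0661), but it differed from the gene as a whole (difference -0.66 on the log2 scale, adjusted p = 0.000256).

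Nr5a1, the steroidogenic factor gene, was weak, with 7.87, 9.08 and 5.22 CPM in the control libraries and 15.3, 11.3 and 14.3 CPM in the RANKL libraries. The groups did not overlap (log2 fold 0.85 ± 0.26 SE, adjusted p = 0.00416). Its region with the smallest adjusted p, chr2:38679353-38681353, lay outside the gene and had 3.86, 5.06 and 3.56 CPM in the control libraries and 8.93, 5.74 and 8.20 CPM in the RANKL libraries (log2 fold 0.84 ± 0.33 SE, adjusted p = 0.035), a call lost with the signal trend removed, by DESeq2 and in 4 of the 6 fits that left out a library. Nr0b2 encodes SHP, which lacks a DNA-binding domain, and is a target of FXR and LRH-1. It had 33.02, 40.4 and 33.6 CPM in the control libraries and 20.8, 22.3 and 18.4 CPM in the RANKL libraries. Its RANKL libraries all lay below its controls (log2 fold -0.82 ± 0.15 SE, adjusted p = 2.34e-06). The region with the smallest adjusted p, chr4:133562439-133564439, lay outside the gene and had 19.1, 23.4 and 19.1 CPM in the control libraries and 8.93, 7.55 and 7.23 CPM in the RANKL libraries (log2 fold -1.41 ± 0.21 SE, adjusted p = 3.33e-10). Nr6a1, the germ cell nuclear factor gene, was not called as a sum (-0.14 ± 0.08), though its start region was lower (-0.46 ± 0.11, adjusted p = 0.000358), a call lost with the signal trend removed (-0.20).

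**Figure D3:**
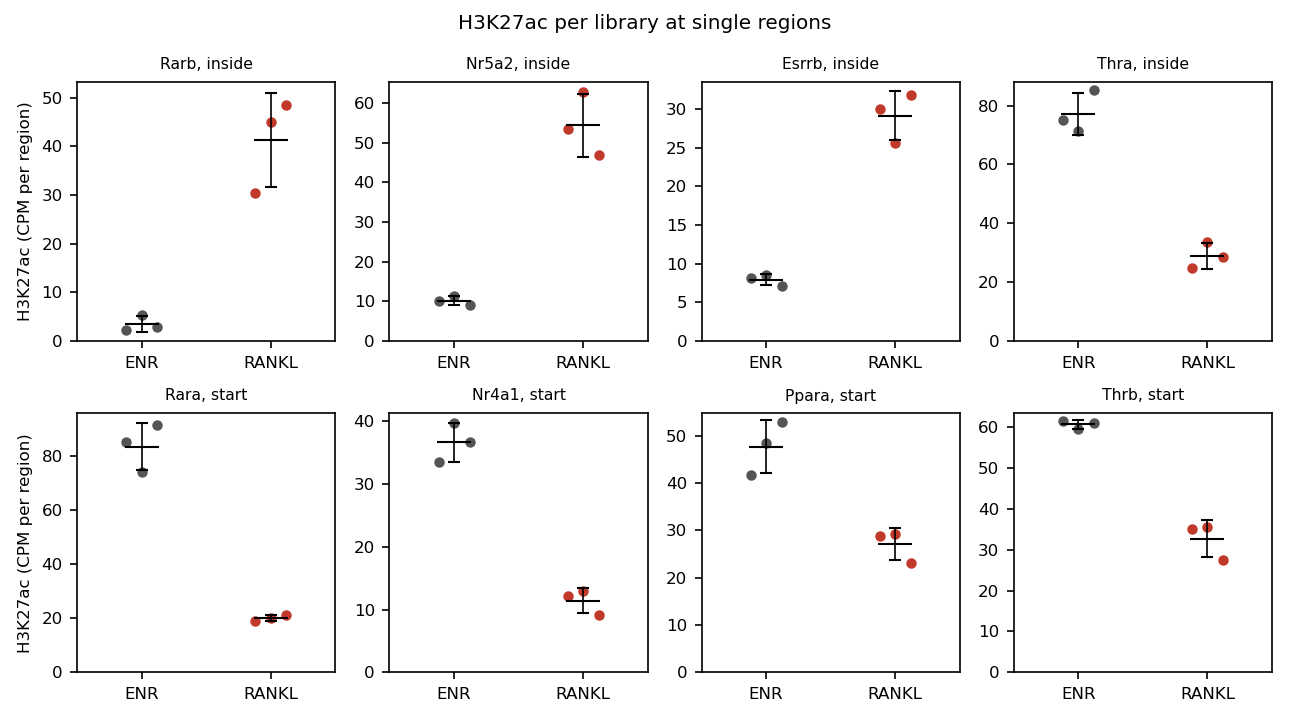
H3K27ac per library, in CPM on a linear axis from 0, at the region with the smallest adjusted p of 8 genes. Dots are the 3 ENR and 3 RANKL libraries, the bar is their mean and the whiskers 1 SD. In all 8 panels the groups do not overlap, which follows largely from picking regions by smallest adjusted p. Thra has no listed start, so its region could not be labelled as a start.

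Over single regions, 23 of 204 tested member regions were higher and 50 lower, against 14.8% higher and 21.0% lower of all 54765 regions. Scaling by library size alone gave 31 higher and 37 lower member regions (18.1% and 17.5% of all regions), and removal of the signal trend gave 26 and 36 (15.4% and 15.8% of all). By position, 16 of 32 regions within 2 kb of a listed start were lower and 2 higher, where 51.7% and 5.93% of all start regions were. Counts by position leave out genes without a listed start, to which 13 tested member regions belonged. The members' shares at starts thus lay near those of all genes. Of 29 members with a tested start region, 15 had one called lower. With the signal trend removed 31.2% of member start regions and 33.5% of all start regions were lower. Inside genes 25 of 108 member regions were lower and 16 higher, where 13.9% and 18.1% of all were. With library-size scaling 17 member regions inside genes were lower and 18 higher, and with the signal trend removed 17 and 17. The share of lower member regions inside genes was nearer that of all regions in these settings. Library-size scaling gave 15.7% of member regions lower against 11.2% of all, and removal of the signal trend 15.7% against 10.8%. Regions of 1 gene are not independent. Counted over all positions, Thrb alone had 8 lower regions, and Nr1h4 and Nr3c2 had 5 each. No share per gene was taken, so nothing about the family is drawn from these counts. Outside genes 5 of 51 were lower and 2 higher (14.5% and 15.4% of all). Library-size scaling gave 5 and 7 (11.6% and 18.5% of all), and removal of the signal trend 6 and 3 (13.2% and 14.8% of all). The RANKL libraries were the shallower ones, and the part of depth in the loss at starts was not tested.

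**Figure D4:**
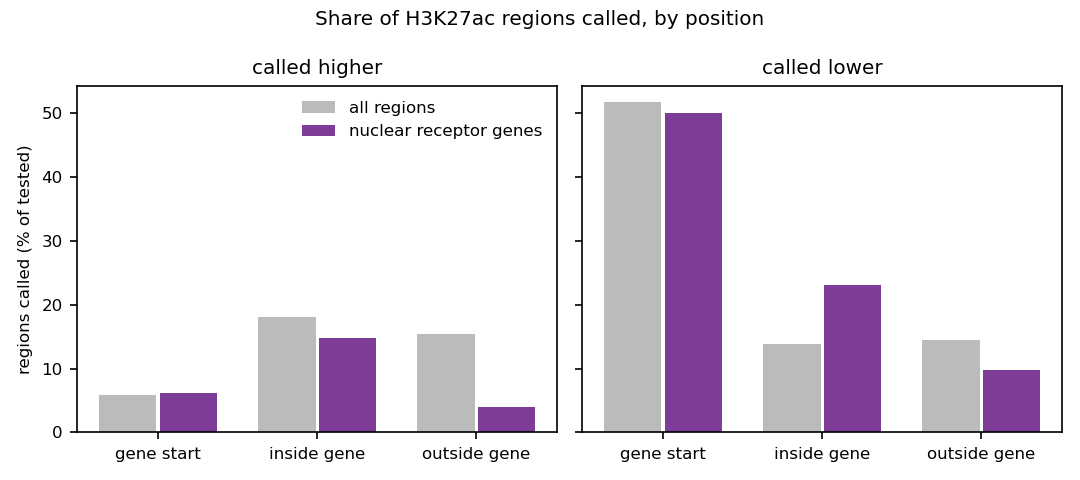
Percentage of tested H3K27ac regions called higher (left) or lower (right) by position, on a linear axis from 0, for all regions (grey) and regions of the nuclear receptor genes (purple). At gene starts 50.0% of member regions and 51.7% of all regions were lower.

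Tested against the fold of the gene as a whole, 20 of 194 member regions rose relative to their gene and 20 fell (13.4% and 11.8% of all regions so tested). They belonged to 15 members. Of 29 members with at least 2 tested regions, 10 (34.5%) had regions called in both directions, against 18.3% of such genes overall. By DESeq2 they were 6 of 28 (21.4%, against 13.8%), without control replicate 3 they were 5 of 29 (17.2%, against 14.7%), without RANKL replicate 1 they were 6 of 29 (20.7%, against 16.2%), and against a minimum fold of 1.5 only Nr4a1 was left (3.45%, against 2.23%). The 10 members were Thra, Thrb, Rarb, Ppara, Ppard, Pparg, Nr2f6, Nr3c1, Nr4a1 and Nr5a2. Members had more regions than other genes, a median of 3 against 2, and the part of that in the share was not tested.

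The authors' deposited table of ONECUT2 sites lists sites with a difference between arms, almost all of them higher after the RANKL protocol. Its ranks imply that 7734 sites were tested, of which 93.9% were listed as higher and 0.0905% as lower. Of the 43 sites at members in the authors' deposited table, 42 were higher and 1 lower, with a median log2 fold of 1.77 against 1.86 over all listed sites. A listed site was found at 51.3% of tested members and 26.97% of all tested genes. Members had a median span of 48.4 kb, and the part of length was not tested. Sites lay inside the gene (24), outside it (15) or at a start (4).

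Rarb had 7 of these sites, Nr5a2 and Nr3c1 had 5 each, and Nr1h4, Pparg and Vdr had 3 each. The highest fold was that of a site outside Nr2f1 (chr13:78220127-78220527), with mean normalised reads of 3.57 in control and 64.6 after RANKL in the authors' deposited table (log2 fold 3.93, FDR 7.92e-15). A site in Rarb (chr14:16567258-16567658) had 4.14 and 63.9 reads in the authors' deposited table (log2 fold 3.72, FDR 4.91e-15). A site outside Nr5a2 (chr1:136841888-136842288) had 2.96 and 46.3 in the authors' deposited table (log2 fold 3.68, FDR 3.40e-11). The site in Pgr (chr9:8914083-8914483) went from 1.27 to 21.9 in the authors' deposited table (log2 fold 3.49). These 4 sites went from low to high means, and the H3K27ac of Nr2f1 and Pgr was not called. The 1 lower site lay outside Vdr (chr15:97929543-97929943), with 24.7 reads in control and 13.3 after RANKL in the authors' deposited table (log2 fold -0.84, FDR 0.0300), 1 of only 7 lower sites listed.

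**Figure D5:**
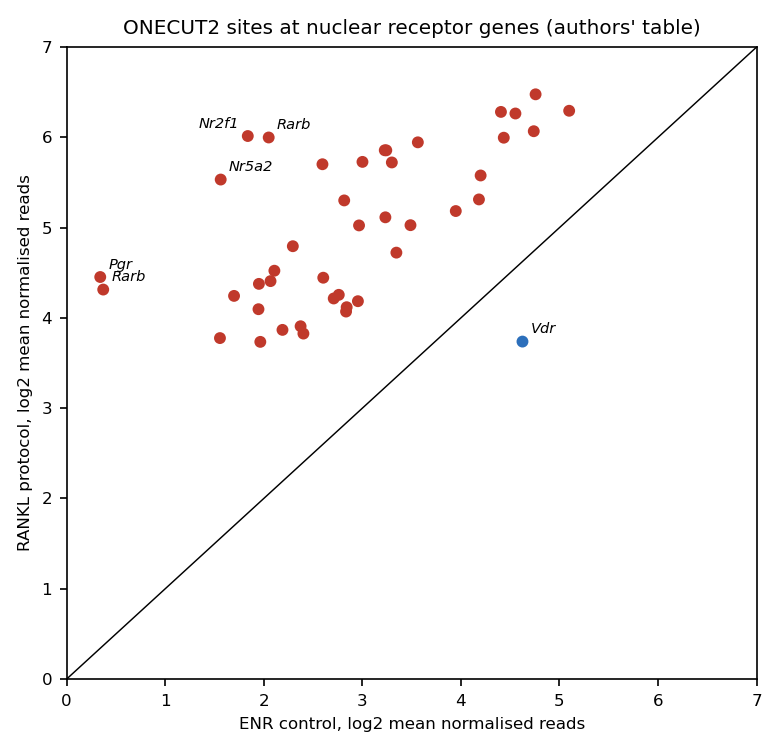
Log2 mean normalised reads of the 43 ONECUT2 sites at nuclear receptor genes in the authors' deposited table, control on the horizontal axis and RANKL on the vertical axis, with the line of equal values. The 42 red sites lie above the line and the 1 blue site, outside Vdr, below it.

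Of the 43 sites, 18 (41.9%) overlapped an H3K27ac region by at least 1 bp, as did 40.6% of all listed sites. Among the 18 member regions under these sites 2 were higher and 4 lower in H3K27ac, against 22.6% and 26.3% of all regions under a site. The members' shares, 11.1% and 22.2%, rest on few regions, so nothing about the members is drawn from them. The 2 that rose lay in Rarb (16755427, log2 fold 1.60) and Nr1d2 (18233161, 0.48 ± 0.15). The 4 that fell lay in Rarb (16949505), Nr1h4 (89521008), Nr3c2 (77054712) and at the start of Nr1i3. By DESeq2 only the 2 Rarb regions among these 6 were called. The Rarb region with the largest H3K27ac gain overlapped no listed site, and neither did that of Nr5a2. The site at Nr1i3 (chr1:171213413-171213813), with 21.6 reads in control and 63.8 after RANKL in the authors' deposited table (log2 fold 1.53, FDR 7.86e-07), overlaps the start window of this gene (chr1:171213720-171213969, plus strand, RefSeq, GRCm38.p6). Its H3K27ac region had 33.04, 35.1 and 29.8 CPM in the control libraries and 21.1, 26.6 and 26.04 CPM in the RANKL libraries (log2 fold -0.41 ± 0.14 SE, adjusted p = 0.0119). The window is shown because it is the only member window that a listed site overlaps, and its 94 bases inside the site are in capitals.
Nr1i3 start: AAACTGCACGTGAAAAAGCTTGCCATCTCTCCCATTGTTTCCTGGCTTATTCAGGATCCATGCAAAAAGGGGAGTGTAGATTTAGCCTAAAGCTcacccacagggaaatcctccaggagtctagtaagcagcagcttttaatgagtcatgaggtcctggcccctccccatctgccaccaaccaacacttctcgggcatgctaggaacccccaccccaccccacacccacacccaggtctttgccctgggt
The ONECUT core ATTGAT is on neither strand of this window, that is, not in these letters. Over all 32851 windows 6.72% held it, and 2 of the 54 member windows (3.70%) did. The half-site AGGTCA was, on either strand, in 14.0% of all windows and in 10 of 54 member windows (18.5%). Windows were listed for 37 of the 40 members.

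Genes of the pathways were read from lists of other receptors, coregulators and textbook targets, with the gene-level background of 24.9% higher and 26.8% lower. The lists do not sort targets by whether the receptor raises or lowers them. A rise or fall of a target is therefore not read as receptor activity. Of 7 other nuclear receptor genes tested, 3 were higher and 2 lower. Hnf4g, an enterocyte regulator (log2 fold 0.64 ± 0.05, SE), and Esrrg (1.06 ± 0.08) were higher, and Nr2e3 (-0.31 ± 0.12) was among the lower ones. Coactivator genes were higher in 6 of 13 and lower in 1, among them Ncoa2 (0.45 ± 0.06), Ppargc1b (0.48 ± 0.07) and the lower acetyltransferase gene Kat2b (-0.30 ± 0.10). Corepressor genes were higher in 4 of 9 and lower in 3. Tbl1x (0.54 ± 0.08) was among the higher ones, and Hr (-0.63 ± 0.14) and Hdac3 (-0.48 ± 0.14) were among the lower ones.

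Target genes of PPARs were lower in 9 of 14 tested and higher in 0, with a median log2 fold of -0.30. The lower ones serve fatty acid oxidation and transport and include Cpt1a, which admits fatty acids to mitochondria (-0.57 ± 0.06), and Acaa2 (-0.74 ± 0.08). Of 8 ERR target genes 3 were lower and 0 higher, led by Perm1 (-1.89 ± 0.26) and the cytochrome c gene Cycs (-0.65 ± 0.10). LXR targets were higher in 2 of 10 and lower in 3, with the cholesterol transporter genes Npc1l1 (0.60 ± 0.11) and Abca1 (0.58 ± 0.11) higher and Lpcat3 (-0.42 ± 0.06) and Scd2 (-0.35 ± 0.09) lower. FXR targets were higher in 2 of 6 and lower in 1. They were Slc10a2, the ileal bile acid importer (1.15 ± 0.09), the exporter subunit Slc51b (0.38 ± 0.14), and Nr0b2. Of 5 LRH-1 targets 1, again Nr0b2, was lower and 0 higher.

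VDR targets were higher in 2 of 5 and lower in 1 (Slc30a10 0.90 ± 0.09, Atp2b1 0.34 ± 0.06, Cyp3a11 -0.29 ± 0.11). PXR and CAR targets were higher in 5 of 12 and lower in 4. Abcc2 (0.39 ± 0.05) and Ugt1a1 (0.40 ± 0.08), of drug export and glucuronidation, were higher, and Gstm1 (-0.68 ± 0.11) and Ces2a (-0.41 ± 0.09) lower. Glucocorticoid receptor targets were higher in 6 of 10 and lower in 2, with Zbtb16 (1.57 ± 0.11) and Klf9 (0.59 ± 0.05) higher and Tsc22d3 (-0.35 ± 0.09) and Dusp1 (-0.23 ± 0.07) lower. Thyroid hormone targets were higher in 3 of 6 and lower in 1, the same Klf9 with Me1 (0.69 ± 0.14) and the lower Hr. Retinoic acid targets were higher in 2 of 10 and lower in 3. Stra6, the retinol uptake receptor, rose from a low level (3.03 ± 0.13), Isx rose (0.38 ± 0.05), and the developmental gene Hoxa5 (-0.83 ± 0.14) and the retinoic acid hydroxylase gene Cyp26b1 (-1.10 ± 0.21) fell.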

How the data were processed

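Mouse small intestinal organoids gave 3 H3K27ac and 3 ONECUT2 ChIPmentation libraries per arm and 1 input per arm, of which the inputs and ONECUT2 values per library were not analysed here. The authors deposited raw read counts per H3K27ac region of 2000 bp on mm10, per the submitters' processing notes. For ONECUT2 they deposited a DiffBind table, which per the file headers holds log2 mean reads per condition, a log2 fold, a p-value and an FDR per site. The sources used here name no aligner, peak caller, duplicate handling or DiffBind version. Coordinates are printed as deposited, and region ends lie 2000 above their starts, so that whether starts count from 0 is unknown.

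Each of 47713 regions within 100 kb of a protein-coding span was counted for its nearest gene (RefSeq table, GRCm38.p6), and 2004 regions over several spans went to the gene with the closest start. A start region lies within 2 kb of a listed start. No start is listed for Thra, Nr5a1 and Nr3c1, so none of their regions is classed as a start region. Gene sums and region counts were each tested with edgeR 4.0.16 (R 4.3.3): TMM scaling, filterByExpr, quasi-likelihood test, p adjusted by Benjamini-Hochberg over all 15965 genes or 54765 regions and called under 0.05. diffSpliceDGE of the same package tested a region's fold against its gene's. On simulated counts with a log2 fold of 1, 93.6% of 110 genes, 66.7% of 105 regions and 41.1% of 73 regions against their gene were recovered, and with 0.5, 74.4% of 90 genes and 14.9% of 94 regions. Few features changed in the simulation, and all shared 1 common dispersion, so rates in the data can differ. Depth was 2745451 to 9160267 reads in regions, and library pairs of an arm differed beyond sampling noise (chi-square per degree of freedom 1.80 to 2.06).

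Numbers shared by libraries of both arms mark the same differentiation experiment per the labels. Deviations of same-numbered libraries correlated at 0.03, -0.04 and -0.03 over genes, and a fit with the experiment as a block was an alternative. Other alternatives were library-size scaling, removal of the trend of fold with signal, DESeq2 1.42.0, other filters and distances, a minimum fold of 1.5, and leaving out each library. Members, gene lists and tests were chosen with earlier results of these data known. Values per library are given for members called with an absolute log2 fold of at least 0.5 or with a region that differs from its gene, with the region of smallest adjusted p, another where the call was opposite, and, chosen after values were seen, start regions of some. Of each list, up to 2 genes of smallest adjusted p per direction are named, and some list genes are not reported here.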

Additional observations from a re-analysis of the deposited data

How the results depend on the processing

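With the experiment number as a replicate block, 10 members were higher and 9 lower (24.1% and 26.0% of all genes), 21 and 46 member regions were higher and lower (14.1% and 20.3% of all regions), and 18 and 20 regions stood above and below their gene (12.5% and 10.9% of all), and beside the calls named above the block ended 3 region calls and 2 calls of a region against its gene. Leaving out 1 library gave 9 to 11 members higher and 9 to 10 lower (21.7% to 23.4% and 23.5% to 25.8% of all genes), 16 to 22 regions higher and 41 to 48 lower (12.3% to 13.7% and 18.2% to 19.9% of all regions), and 14 to 19 regions above and 16 to 20 below their gene (10.7% to 12.0% and 9.69% to 10.3% of all). Against a minimum fold of 1.5, 2 members were higher and 1 lower, and 7 and 11 member regions (5.50% and 4.77% of all regions), an alternative for regions chosen after seeing the data. DESeq2 called 15 member regions higher and 38 lower (12.3% and 18.5% of all regions). Counting a region that several genes overlap for each of them, also added later, gave 12 members higher and 9 lower. Of all genes 25.5% were then higher and 27.1% lower. At gene starts alone, a fit rescaled on start regions, the log2 fold changed sign at Ppara (-0.48), Rorb (-0.14) and Nr3c2 (0.23), calls ended at Nr1h2 (-0.08), Nr4a2 (-0.16), Nr5a2 (0.02), Nr0b2 (-0.17), Esr1 (0.53, adjusted p = 0.0525) and Esr2 (-0.40), and calls were gained at Rarg (0.41), Ppard (-0.45), Nr2c1 (0.29) and Nr2c2 (0.25). Within 10 kb, 31 ONECUT2 sites at 17 members remained, at an FDR under 0.01, 38 at 19, and with an overlap of 200 bp, 17 regions lay under a site. Library-size scaling moved the median log2 fold of all regions from 0.06 to 0.15. In the simulation 14.9% of region changes of 0.5 on the log2 scale were recovered. Far fewer regions changed there than were called in the data, and all shared 1 common dispersion. Such changes could be missed in the data too, at a rate that the simulation does not give.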
